A study of Homo sapiens with 8 samples.

Results

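The human tubulin family was followed across a knockdown experiment in T47D, an established luminal breast cancer line that expresses the estrogen receptor. The family was followed through 10 of its genes. These were the α-tubulin genes TUBA1A, TUBA1B, TUBA1C and TUBA4A, the β-tubulin genes TUBB, TUBB2A, TUBB2B, TUBB3 and TUBB6, and the γ-tubulin gene TUBG1. Each was represented by the probe set that carries its symbol alone and has the highest mean over the arrays. This gave 9 measured genes of the 18417 that have such a probe set. TUBB3 had none, because its probe set is shared with the neighbouring gene MC1R. The members were chosen by family, with the siRNA differences of TUBA1A and the other isotypes over these arrays already known, so their siRNA values are a description and support nothing. E2 changes were also named when the family was chosen, so the E2 counts are likewise a description.

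RNA was hybridised to 8 Affymetrix Human Gene 1.0 ST arrays, 2 in each of 4 groups. The groups were 17β-HSD1 siRNA with estradiol (E2), 17β-HSD1 siRNA with vehicle, control siRNA with E2, and control siRNA with vehicle. All cells, grown with bovine insulin, spent 2 days in charcoal-treated, steroid-deprived medium and were transfected with 200 nM siRNA, either a mix of 3 siRNAs against 17β-HSD1 or a scrambled control. After 48 h they were given 1 nM E2 or ethanol for 2 more days. The mixed siRNAs were not tested singly, so an effect of 1 siRNA cannot be told apart from that of the mix, and no untransfected cells were analysed here. Replicates 1 and 2 came from separate culture experiments.

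Tubulins are the building blocks of microtubules. An α- and a β-tubulin, folded by the CCT chaperonin and the tubulin cofactors, join into a dimer that polymerises, while γ-tubulin sits in a ring complex at the centrosome from which microtubules start. Dividing cells rebuild their microtubules into the mitotic spindle, the structure that taxanes and vinca alkaloids act on in breast cancer treatment. The isotypes differ mainly in their acidic C-terminal tails and in where they are made: TUBA1B, TUBA1C and TUBB are made in most cells, whereas TUBA1A, TUBB2A, TUBB2B and TUBB3 are best known from neurons. Free tubulin dimers also lower tubulin mRNA, through TTC5, which recognises nascent tubulin on the ribosome.

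Values are the deposited log2 signals, so a difference of 1 is a doubling. Tubulin levels are compared between groups for a gene and not between tubulin genes. HSD17B1, the target of the siRNA, had a signal of 8.32 and 8.37 after 17β-HSD1 siRNA in E2 and 8.41 and 8.36 in vehicle, against 9.12 and 8.56 with control siRNA in E2 and 9.35 and 8.66 in vehicle. Its averaged difference of -0.56 ± 0.16 (SE, 4 arrays against 4) had an adjusted p of 0.221 in limma. The first array after 17β-HSD1 siRNA in vehicle, replicate 1, lay apart with a mean correlation of 0.973 with the other arrays, against 0.981 to 0.988 for the rest. The 8 luminal markers had mean signals of 8.68 to 13.4. The 21 measured markers of 5 other cell types had 4.62 to 8.86, so the ranges overlap, and signals of different probe sets compare only roughly. Of these 21, 0 passed limma's threshold for either the siRNA or E2 (1 in each at an unadjusted p below 0.05).

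Promoter sequence is shown for TUBA1A, the member with the lowest signal after the siRNA relative to control, for its neighbour TUBA1B, which encodes a near-identical α-tubulin and gave another pattern, and for TUBG1, which is called in E2. The 3 genes TUBA1B, TUBA1A and TUBA1C lie side by side on chromosome 12. Each line gives the 250 bases before the start of the RefSeq gene on GRCh38.p14, 5′ to 3′ on the gene's own strand. They cover chr12:49189081-49189330 (minus strand) for TUBA1A, chr12:49131396-49131645 (minus strand) for TUBA1B and chr17:42609433-42609682 (plus strand) for TUBG1. Capitals mark CCAAT and GGGCGG on either strand.
TUBA1A: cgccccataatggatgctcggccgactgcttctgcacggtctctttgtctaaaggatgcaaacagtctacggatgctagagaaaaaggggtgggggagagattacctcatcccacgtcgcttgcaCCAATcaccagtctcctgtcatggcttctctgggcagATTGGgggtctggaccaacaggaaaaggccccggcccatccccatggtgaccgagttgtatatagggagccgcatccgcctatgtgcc
TUBA1B: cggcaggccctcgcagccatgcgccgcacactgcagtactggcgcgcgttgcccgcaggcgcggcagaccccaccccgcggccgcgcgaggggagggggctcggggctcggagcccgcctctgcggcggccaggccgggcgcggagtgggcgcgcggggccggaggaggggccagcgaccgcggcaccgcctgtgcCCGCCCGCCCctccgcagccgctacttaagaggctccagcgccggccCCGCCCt
TUBG1: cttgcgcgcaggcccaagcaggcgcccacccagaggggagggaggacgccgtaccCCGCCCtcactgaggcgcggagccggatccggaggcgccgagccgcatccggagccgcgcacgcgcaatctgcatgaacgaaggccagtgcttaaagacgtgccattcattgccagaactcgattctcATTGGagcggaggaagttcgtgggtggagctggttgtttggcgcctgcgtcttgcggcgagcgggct
The TUBA1A window held 2 CCAAT matches, 125 and 88 bases before the start, and 0 GGGCGG matches, with 56.4% G and C. The TUBA1B window held 0 CCAAT matches and 3 GGGCGG matches, of which 2 overlap, with 81.2% G and C. The TUBG1 window held 1 of each, with 66.4% G and C. Of the 15 windows that RefSeq gives for the 10 genes, some of them overlapping, 9 held CCAAT and 10 held GGGCGG. Over all 35116 promoter windows these shares were 32.0% and 42.6%. The palindromic estrogen response element, GGTCA and TGACC with any 3 bases between, was found in 0 of the 15 windows and in 0.0399% of all windows. Its single arm GGTCA, on either strand, was found in 4 of the 15, in TUBA1A, TUBB and TUBA1C, and in 32.6% of all. These are letter matches in a short window and say nothing of binding.

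After 17β-HSD1 siRNA, TUBA1A was the member whose signal lay furthest below control siRNA. TUBA1A had 9.98 and 9.88 after 17β-HSD1 siRNA in E2 and 9.36 and 9.63 in vehicle, against 10.45 and 10.61 with control siRNA in E2 and 10.54 and 10.39 in vehicle. All 4 knockdown arrays lay below all 4 control arrays. The averaged difference of TUBA1A was -0.78 ± 0.11 (SE, 4 arrays against 4), or 0.581-fold, and it was -0.97 ± 0.16 in vehicle and -0.60 ± 0.16 in E2. Without the array that lay apart, replicate 1 of 17β-HSD1 siRNA in vehicle, the averaged difference was -0.72 ± 0.09. The arrays average over all cells of a culture, so fewer cells with a transcript and less transcript per cell cannot be told apart.

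**Figure D1:**
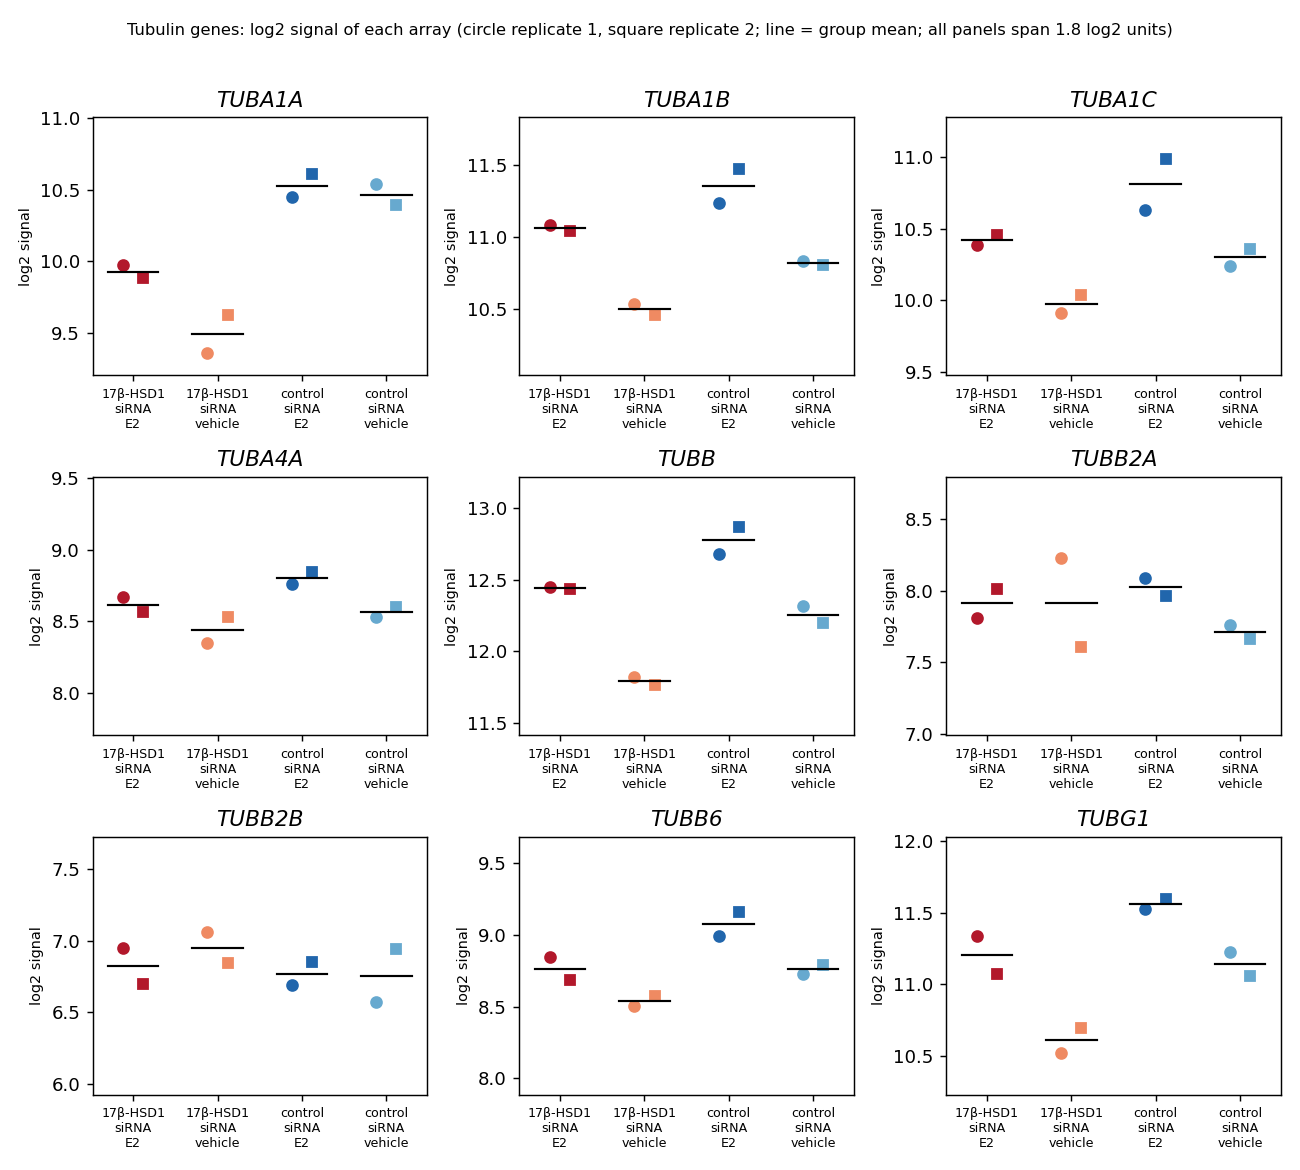
Log2 signal (y axis) of the 9 measured tubulin genes in each array of the 4 groups (x axis), with circles for replicate 1, squares for replicate 2 and a line at the group mean; every panel spans 1.8 log2 units. TUBA1A has both pairs of 17β-HSD1 siRNA arrays below both pairs of control arrays, whereas TUBA1B, TUBA1C and TUBB step up with E2 under either siRNA.

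TUBB, TUBG1, TUBA1B, TUBA1C, TUBB6 and TUBA4A had negative siRNA differences smaller in size than that of TUBA1A. TUBB, the main β-tubulin gene of dividing cells, had 12.45 and 12.43 after 17β-HSD1 siRNA in E2 and 11.82 and 11.76 in vehicle, against 12.68 and 12.87 with control siRNA in E2 and 12.31 and 12.19 in vehicle. Within each medium the pairs of TUBB values did not overlap, and its averaged difference was -0.40 ± 0.10. TUBG1, which encodes the γ-tubulin of the ring complex, had 11.34 and 11.07 after 17β-HSD1 siRNA in E2 and 10.52 and 10.70 in vehicle, against 11.53 and 11.59 with control siRNA in E2 and 11.23 and 11.06 in vehicle. Its averaged difference was -0.44 ± 0.11. TUBA1B and TUBA1C, the ubiquitous α-tubulins next to TUBA1A, had averaged siRNA differences of -0.31 ± 0.10 and -0.36 ± 0.11. TUBB6, a more divergent β-tubulin, had -0.27 ± 0.10, and TUBA4A, an α-tubulin abundant in platelets, -0.15 ± 0.10.

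The paired genes TUBB2A and TUBB2B, neighbours on chromosome 6, showed no clear lower signal. TUBB2A had 7.81 and 8.01 after 17β-HSD1 siRNA in E2 and 8.23 and 7.61 in vehicle, against 8.09 and 7.97 with control siRNA in E2 and 7.76 and 7.67 in vehicle, so its arrays overlapped between the siRNAs. The gap between its 2 vehicle arrays after 17β-HSD1 siRNA was wider than any difference of group means. Its averaged siRNA difference was 0.04 ± 0.14, and -0.11 ± 0.10 without replicate 1 of that group. The other probe sets of TUBB2A had an averaged siRNA difference of -0.07. TUBB2B had 6.95 and 6.70 after 17β-HSD1 siRNA in E2 and 7.06 and 6.84 in vehicle, against 6.69 and 6.85 with control siRNA in E2 and 6.57 and 6.94 in vehicle. The averaged siRNA difference of TUBB2B was 0.12 ± 0.12, with overlapping arrays. Its mean signal of 6.82 lay at percentile 30 of the tested probe sets, so a change may be harder to see. The probe set shared by TUBB3 and MC1R, from which neither gene is read, ran from 8.67 to 8.92 over the 8 arrays.

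In the averaged siRNA comparison 1 of the 9 members, TUBA1A, was called at an adjusted p below 0.05 in the limma fit, against 0.457% of the 21214 probe sets tested. That share counts a contrast that proposed the family, and nothing is read from it. The TUBA1A call did not hold in every fit that left out 1 array, where 1 group keeps 1 array. In the fits that lost it, calls over all probe sets were also fewer. The averaged TUBA1A difference lay between -0.85 and -0.72 with 1 array left out. Fitting unnamed probe sets as well also ended the TUBA1A call, with 0% of all probe sets called. In each medium the pair of knockdown arrays lay below the pair of control arrays for 6 of the 9 members, TUBA1A, TUBA1B, TUBA1C, TUBB, TUBB6 and TUBG1, and for 6.26% of all probe sets. All 4 knockdown arrays lay below all 4 control arrays for TUBA1A alone among the 9, and for 2.16% of all. Within a single medium 0 members were called (0% of all probe sets in each), while 4 had an unadjusted p below 0.05 in vehicle, as did 5.45% of all probe sets, and 4 in E2, as did 4.61% of all. With the replicate number as a block, TUBA1A was called in vehicle, where 0.174% of all probe sets were called.

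**Figure D2:**
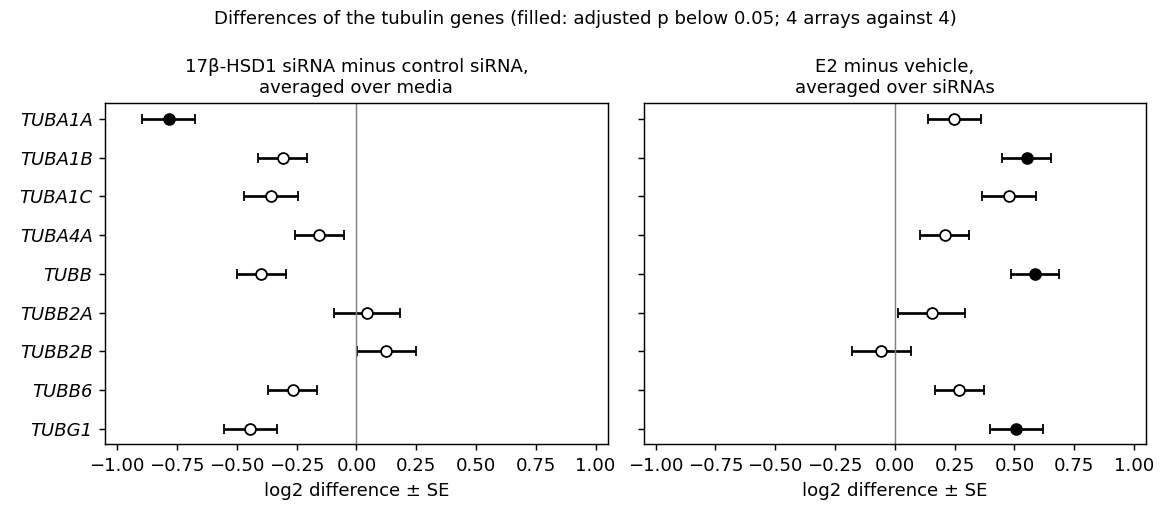
Log2 difference ± SE (x axis) of each member (y axis) for 17β-HSD1 siRNA minus control siRNA (left) and for E2 minus vehicle (right), 4 arrays against 4 in each, filled where the adjusted p is below 0.05. TUBA1A lies furthest left in the siRNA panel at -0.78, and TUBB, TUBA1B and TUBG1 are the filled points at 0.59, 0.55 and 0.51 in the E2 panel.

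To set TUBA1A against the other isotypes, its signal minus the mean of the other 8 members was taken within each array. This relative TUBA1A signal was 0.29 and 0.26 after 17β-HSD1 siRNA in E2 and -0.0045 and 0.32 in vehicle, against 0.62 and 0.64 with control siRNA in E2 and 1.01 and 0.84 in vehicle. The knockdown arrays lay below the control arrays without overlap. The siRNA difference of the relative TUBA1A signal was -0.56 averaged over the media, -0.77 in vehicle and -0.36 in E2, where the SD within groups was 0.13. Gene by gene, the averaged siRNA difference of TUBA1A minus that of the other member ran from -0.91 for TUBB2B to -0.34 for TUBG1. The signal of TUBB2B was low in every group. Against its neighbours TUBA1B and TUBA1C it was -0.48 and -0.43. Taken against single genes, the knockdown and control arrays did not overlap for TUBA1C, TUBA4A, TUBB2A, TUBB2B and TUBB6, but they overlapped for TUBA1B, TUBB and TUBG1. No test is given, since this contrast proposed the family.

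**Figure D3:**
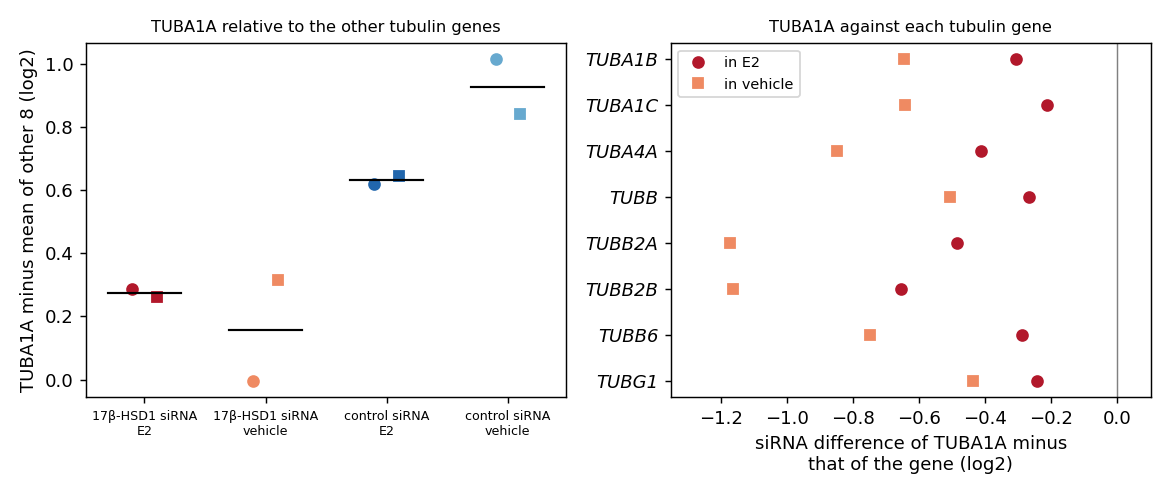
Left, TUBA1A signal minus the mean of the other 8 members in each array (y axis, log2) for the 4 groups, with circles for replicate 1, squares for replicate 2 and lines at the means. Right, the siRNA difference of TUBA1A minus that of each other member (x axis, log2) in E2 and in vehicle; all points lie left of 0, and the values in vehicle lie further left than those in E2.

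Averaged over the siRNAs, E2 raised TUBB, TUBA1B and TUBG1. TUBB averaged 12.61 ± 0.21 in E2 and 12.02 ± 0.27 in vehicle (SD, n = 4 each), and rose by 0.59 ± 0.10 (SE), or 1.5-fold, with a limma adjusted p of 0.0148. TUBA1B had 11.08 and 11.04 in E2 and 10.54 and 10.46 in vehicle after 17β-HSD1 siRNA, against 11.24 and 11.48 in E2 and 10.84 and 10.81 in vehicle with control siRNA. All 4 E2 arrays of TUBA1B lay above all 4 vehicle arrays, and it rose by 0.55 ± 0.10, or 1.46-fold, with a limma adjusted p of 0.0224. TUBG1 rose by 0.51 ± 0.11, or 1.42-fold, with a limma adjusted p of 0.0495, close to the threshold of 0.05. TUBA1C had 10.39 and 10.46 in E2 and 9.91 and 10.04 in vehicle after 17β-HSD1 siRNA, against 10.63 and 10.99 in E2 and 10.24 and 10.36 in vehicle with control siRNA. Its arrays also separated by medium, but its difference of 0.48 ± 0.11 did not pass (limma adjusted p = 0.0708, or 0.0324 with the replicate block).

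The remaining members had E2 differences that did not pass. TUBB6 differed by 0.27 ± 0.10 (limma adjusted p = 0.396), with 8.85 and 8.68 in E2 and 8.51 and 8.57 in vehicle after 17β-HSD1 siRNA, against 9.0 and 9.16 in E2 and 8.73 and 8.79 in vehicle with control siRNA. TUBA4A differed by 0.21 ± 0.10, with 8.67 and 8.56 in E2 and 8.35 and 8.53 in vehicle after 17β-HSD1 siRNA, against 8.76 and 8.85 in E2 and 8.53 and 8.60 in vehicle with control siRNA. With either siRNA the E2 pair lay above the vehicle pair for both of these genes. TUBA1A differed by 0.25 ± 0.11 (limma adjusted p = 0.536), TUBB2A by 0.15 ± 0.14 and TUBB2B by -0.06 ± 0.12. The other probe sets of TUBB2A, a pair with identical values in every array, differed by -0.08 on average with E2, so the probe sets of TUBB2A disagree in direction.

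In this averaged E2 comparison 3 of the 9 members were called, all higher, against 1.55% of all probe sets called and 1.32% called higher. The members were chosen with earlier results of these data known, so the shares given here are a description and nothing is read from them. Both E2 arrays lay above both vehicle arrays with each siRNA for 6 of the 9, TUBA1B, TUBA1C, TUBA4A, TUBB, TUBB6 and TUBG1, and for 6.2% of all probe sets. All 4 E2 arrays lay above all 4 vehicle arrays for 3, TUBA1B, TUBA1C and TUBB, and for 2.94% of all. With the replicate block, 4 of the 9 were called, TUBA1C being the addition, against 2.4% of all probe sets. The count of 3 was lower in most fits that left out 1 array, where 1 group keeps 1 array. In all of these fits, calls over all probe sets were fewer as well. The differences themselves moved little when an array was left out, with TUBB between 0.54 and 0.63, TUBA1B between 0.49 and 0.61 and TUBG1 between 0.44 and 0.57.

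The E2 difference was also read with each siRNA alone, 2 arrays against 2. TUBB differed by 0.65 ± 0.14 after 17β-HSD1 siRNA and by 0.52 ± 0.14 with control siRNA. TUBA1B differed by 0.57 ± 0.15 after 17β-HSD1 siRNA and by 0.53 ± 0.15 with control siRNA. TUBG1 differed by 0.60 ± 0.16 after 17β-HSD1 siRNA and 0.42 ± 0.16 with control siRNA. TUBA1A differed by 0.43 ± 0.16 after 17β-HSD1 siRNA and by 0.06 ± 0.16 with control siRNA, where its arrays overlapped. The difference between these TUBA1A responses, the interaction, was 0.37 ± 0.22 (limma adjusted p = 1.00), so the data do not separate them from the spread between replicates. In limma 0 members were called after 17β-HSD1 siRNA, with control siRNA or in the interaction, where 0.269%, 0.0848% and 0% of all probe sets were called. At an unadjusted p below 0.05 there were 5 members after 17β-HSD1 siRNA, 4 with control siRNA and 0 in the interaction, beside 4.52%, 5.94% and 0.66% of all probe sets.

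**Figure D4:**
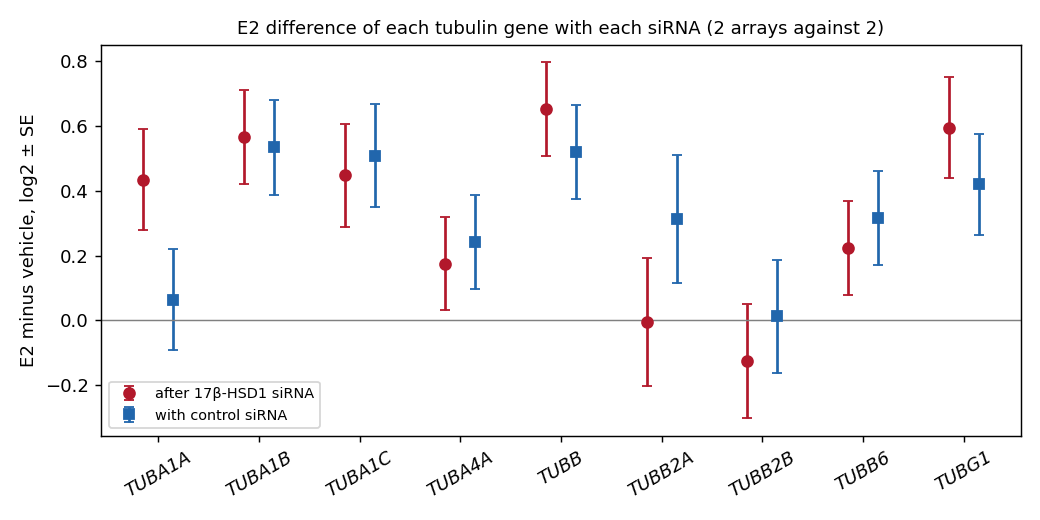
E2 minus vehicle difference ± SE (y axis, log2) of each member (x axis) after 17β-HSD1 siRNA (red circles) and with control siRNA (blue squares), 2 arrays against 2. TUBA1B and TUBB lie near each other under both siRNAs, while TUBA1A lies at 0.43 after 17β-HSD1 siRNA and 0.06 with control siRNA, with standard errors of 0.16.

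The order of the 4 group means was the same for 6 members, TUBA1B, TUBA1C, TUBA4A, TUBB, TUBB6 and TUBG1. They were lowest after 17β-HSD1 siRNA with vehicle, then with control siRNA and vehicle, then after 17β-HSD1 siRNA with E2, and highest with control siRNA and E2. For 3 of them, TUBA1B, TUBA1C and TUBB, no neighbouring groups overlapped, whereas in TUBB6 and TUBG1 the middle groups overlapped, and in TUBA4A the lowest 3 groups did so in turn. TUBA1A had another order, with both 17β-HSD1 siRNA groups lowest, and its control groups in vehicle and in E2 overlapped. In TUBB2B all neighbouring groups overlapped. In TUBB2A only the lowest, control siRNA with vehicle, was separate from the next group.

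Across the 8 arrays, which share 4 treatments and 2 culture experiments, TUBA1B followed TUBB with a Pearson correlation of 0.99 and TUBA1C followed TUBB with 0.95. TUBA1A correlated with TUBA1B at 0.70 and with TUBG1 at 0.85, and with TUBB2B at -0.54. The genes most like TUBA1A among the other 18408 were HMGN1, which encodes a nucleosome-binding protein (r = 0.98 over 8 arrays), GRPEL2, a mitochondrial co-chaperone gene (0.98), PTBP3, an RNA-binding protein gene (0.98), SGCB, a sarcoglycan gene (0.98), and the kinase gene STK39 (0.97). HMGN1 ran from 10.39 to 10.63 in the knockdown arrays and from 10.74 to 10.80 in the control arrays. Like TUBA1A, each of the 5 had all knockdown arrays below all control arrays, so these values restate the siRNA grouping.

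Beyond the 9 members, 11 of 12 other tubulin genes had a probe set of their own. With E2 1 of the 11 rose, TUBB4B, a β-tubulin of most tissues including dividing cells and cilia (0.58 ± 0.11, limma adjusted p = 0.021), and the median of the 11 was 0.05, against 0.27 for the 9 members and -0.02 for all probe sets. TUBB4B had 11.77 and 11.75 after 17β-HSD1 siRNA in E2 and 11.03 and 11.32 in vehicle, against 12.12 and 12.29 with control siRNA in E2 and 11.60 and 11.66 in vehicle. Its averaged siRNA difference was -0.45 ± 0.11, 0 of the 11 were called in the siRNA comparison, and their median was -0.16, against -0.31 for the members and 0.01 for all. Of the 11, 5 lay above the median level of the tested probe sets, against 8 of the 9 members. Mean signals ran from 5.31 to 11.7 in the 11 and from 6.82 to 12.3 in the members. Changes in the lower ones may be harder to see, so the medians compare only roughly. TUBG2, the other γ-tubulin gene and the neighbour of TUBG1, had -0.40 ± 0.12 for the siRNA and -0.07 for E2. The TUBB4B call was lost without either replicate of control siRNA with vehicle (adjusted p = 0.0679 and 0.0618), without replicate 2 of control siRNA with E2 (0.11) and without either replicate of 17β-HSD1 siRNA with E2 (0.121 and 0.118).

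The folding machinery that serves tubulin gave no called gene. All 14 chaperonin and prefoldin subunits had positive E2 differences (median 0.26) and negative siRNA differences (median -0.34), with 0 called in either. Of all 21214 probe sets, 8896 and 9683 had these signs. In vehicle the 14 averaged 9.26 and 9.62 in knockdown arrays, replicates 1 and 2, against 9.94 and 9.63 in control arrays. Replicate 2 thus showed almost no siRNA difference in vehicle, and the knockdown array of replicate 1 is the one that lay apart. In E2 these means were 9.70 and 9.70 against 10.01 and 10.00. With 1 array left out, medians of the 14 lay between 0.12 and 0.35 for E2 and between -0.42 and -0.26 for the siRNA. CCT5, a chaperonin subunit, had 0.54 ± 0.13 with E2 (limma adjusted p = 0.0707, or 0.0457 with the replicate block), and TCP1, another subunit, -0.44 ± 0.13 with the siRNA. Of the 6 measured tubulin cofactors, which assemble the dimer after folding, 0 were called, with medians of 0.12 for E2 and -0.22 for the siRNA. TBCB differed by -0.45 ± 0.15 with the siRNA and TBCE by 0.25 ± 0.16 with E2.

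Of the 18 measured genes for the γ-tubulin ring complex and its recruiters, 1 was called in each comparison. HAUS2, a subunit of the augmin complex that places γ-tubulin on spindle microtubules, had 7.22 and 7.26 after 17β-HSD1 siRNA in E2 and 6.69 and 6.79 in vehicle, against 8.06 and 7.84 with control siRNA in E2 and 7.55 and 7.46 in vehicle. The HAUS2 difference was -0.74 ± 0.10 for the siRNA and 0.47 ± 0.10 for E2 (limma adjusted p = 0.0138 and 0.0491). The siRNA call of HAUS2 was lost without replicate 1 of control siRNA with vehicle or either replicate of 17β-HSD1 siRNA with E2, and its E2 call without any 1 of the arrays other than replicate 2 of 17β-HSD1 siRNA with vehicle. HAUS6, another augmin subunit, had -0.59 ± 0.12 for the siRNA (limma adjusted p = 0.0559, or 0.0294 with the replicate block). TUBGCP4, a ring complex subunit, had 0.41 ± 0.10 with E2 (0.0983).

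Among 27 measured microtubule assembly and severing factors, 2 rose with E2 and 1 fell with the siRNA. KIF2C, a kinesin that takes microtubule ends apart at centromeres, rose by 0.86 ± 0.11 with E2 (limma adjusted p = 0.00281) and differed by -0.64 ± 0.11 with the siRNA (limma adjusted p = 0.0293). STMN1, which encodes the dimer-binding protein stathmin, rose by 0.69 ± 0.11 with E2 (limma adjusted p = 0.00866) and had -0.56 ± 0.11 with the siRNA (0.0556, or 0.0231 with the replicate block). The list's medians were 0.05 for E2 and 0.00 for the siRNA. The KIF2C siRNA call was kept only when replicate 1 of control siRNA with E2 or replicate 2 of 17β-HSD1 siRNA with vehicle was the array left out, and the E2 call of STMN1 was lost without either replicate of 17β-HSD1 siRNA with E2 (adjusted p = 0.0586 and 0.0545). None of the 17 tubulin-modifying enzymes or the 5 genes of tubulin mRNA autoregulation passed in either comparison (0 of each in limma). TTL, the tubulin tyrosine ligase gene, had 0.29 ± 0.11 with E2, AGBL2, a carboxypeptidase gene, 0.34 ± 0.19 with the siRNA, and TTC5 -0.31 ± 0.14 with the siRNA.

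Proliferation genes moved in the same comparisons as the members. Of 18 proliferation markers, 17 rose with E2, with a median of 0.95, and 4 fell with the siRNA, CCNB1, CCNA2, TYMS and CDC20, where all 18 differences were negative with a median of -0.59. The mitotic cyclin gene CCNB1 rose by 1.01 ± 0.11 with E2 and fell by 0.68 on the log2 scale with the siRNA (SE 0.11). With 1 array left out, between 12 and 16 of the 18 rose with E2 and between 0 and 5 fell with the siRNA. Blocking on the replicate number gave 18 markers higher with E2 and 9 lower with the siRNA, while fitting unnamed probe sets as well gave 10 and 0. The count that fell was 0 without replicate 1 of control siRNA with vehicle, replicate 2 of control siRNA with E2 or either replicate of 17β-HSD1 siRNA with E2, and 1 without replicate 2 of control siRNA with vehicle. The mean signal over the 18 markers ran from 9.25 to 9.26 after 17β-HSD1 siRNA in E2 and from 8.23 to 8.39 in vehicle, against 9.62 to 9.91 with control siRNA in E2 and 8.81 to 9.0 in vehicle. The part of proliferation in the tubulin differences was not tested.

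**Figure D5:**
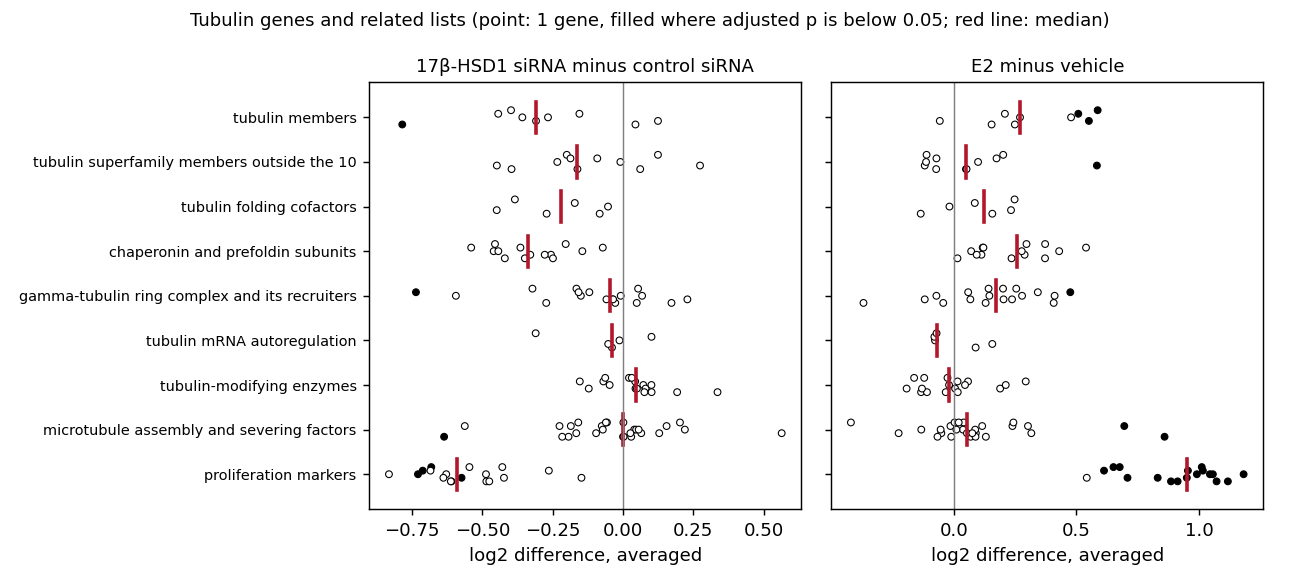
Averaged log2 differences (x axis) of each measured gene in the tubulin members and in 8 related lists (y axis) for 17β-HSD1 siRNA minus control siRNA (left) and E2 minus vehicle (right); each point is a gene, filled where its adjusted p is below 0.05, and red lines are medians. The members' medians are -0.31 and 0.27, between the proliferation markers at -0.59 and 0.95 and the tubulin-modifying enzymes at 0.04 and -0.02.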

How the data were processed

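The authors deposited 1 table of 33297 probe sets by 8 arrays in log2 units, a scale read from its values of 2.42 to 15.2. How the arrays were summarised and normalized is not given in the sources used here. Values were tested as deposited (array medians 7.25 to 7.37). The number of arrays limits the precision.

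Gene names came from GEO's platform annotation, compared with RefSeq through gene identifiers. A single symbol stood on 19460 probe sets, several on 1754 and none on 12083, which left 21214 named probe sets for the tests. All 10 genes were matched by symbol to the RefSeq promoter table (GRCh38.p14), which gives them 15 entries. No build is stated for the array table.

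limma 3.58.1 in R 4.3.3 was fitted with 1 coefficient per group (4 residual degrees of freedom per probe set) and eBayes. Calls need a Benjamini-Hochberg adjusted p below 0.05 over all 21214. The fit was also run on simulated data with independent errors between arrays, and nothing is read from that run. Leaving out an array leaves 1 array in its group, which is assumed to vary like the others.

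The members, lists, tests and the rule for named genes were chosen with earlier results of these data known. The rule names every member, any called list gene and up to 2 genes per list and averaged comparison by smallest p. TUBB3 has no probe set of its own, so TUBA1A was set against 8 members and not 9. The 3 TUBB probe sets hold identical values and count once among members. The labels number the replicates and name 2 culture experiments, so the number was tried as a block. Deviations of same-numbered arrays correlated at 0.44, 0.42, 0.31 and 0.31 in 4 pairs of groups. The 0.44 was between control siRNA with vehicle and control siRNA with E2. The other correlations of control siRNA with vehicle were 0.0075 with 17β-HSD1 siRNA and E2 and -0.20 with 17β-HSD1 siRNA and vehicle. Alternatives were a trended robust spread, other sets of probe sets, an additive model, a further quantile normalization, fits on the arrays compared, the mean over a gene's probe sets, and leaving out each array.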

Additional observations from a re-analysis of the deposited data

How the results depend on the processing

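Every member kept the direction of its averaged siRNA difference in all alternatives except TUBB2A, and of its averaged E2 difference in all except TUBB2A and TUBB2B. The siRNA difference of TUBB2A lay between -0.11 and 0.20 with 1 array left out and was -0.03 as the mean over its probe sets. For E2, TUBB2A was -0.0018 without replicate 2 of 17β-HSD1 siRNA with vehicle and -0.0044 as the mean over its probe sets, and between -0.0018 and 0.31 with 1 array left out. TUBB2B was 0.037 without replicate 2 of control siRNA with vehicle and 0.0054 without replicate 2 of 17β-HSD1 siRNA with E2, and between -0.15 and 0.037 with 1 array left out. It has no value over the brighter probe sets alone, which leave it out. With all probe sets in the fit, 0 members were called for the siRNA and 0 for E2, beside 0% and 0.297% of all probe sets, where more probe sets enter the adjustment. After a further quantile normalization 1 member, TUBB, was called for E2, beside 1.43% of all. TUBA1B and TUBG1 then had limma adjusted p of 0.0529 and 0.0742, and the cause was not tested. Fitted on the arrays compared, 1 was called for the siRNA in vehicle, beside 0.297% of all. With 1 array left out, the call of TUBA1A for the siRNA did not hold in every fit, and fewer members were called for E2 in most. The relative TUBA1A siRNA difference then lay between -0.64 and -0.48.

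With the replicate number as a block, 1 member was called for the siRNA in vehicle and 4 in the averaged E2 comparison, beside 0.174% and 2.4% of all probe sets (0% and 1.55% without the block), where TUBA1C was added (as in the additive model), and no other call among the members changed. With replicate numbers crossed in control siRNA with vehicle, a choice made after seeing the data, the counts were 0 and 3, beside 0% and 1.88% of all, and 8 of the 18 proliferation markers fell with the siRNA. With 1 probe set per gene, also chosen after seeing the data, 1 member was called for the siRNA and 3 for E2, beside 0.445% and 1.65% of all.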
